A study of Drosophila melanogaster with 16 samples.

Results

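The maternal genes deadhead (dhd), cortex (cort), grauzone (grau), pan gu (png), giant nuclei (gnu) and plutonium (plu), which act in egg activation and the completion of meiosis in Drosophila, were followed in RNA from early embryos. They were chosen by their symbols among the 17753 genes of the counts table. All 6 were found and all 6 were among the 12398 genes with enough counts to be tested. The embryos came from 4 genotypes, all carrying the white-mottled X chromosome inversion wm4h, which places the eye pigment gene w beside heterochromatin. The control was wm4h;+/+. The mutants were wm4h;JasperSu113/JasperSu113 and wm4h;JasperSu140/JasperSu140, a pair of alleles of the chromatin cofactor gene Jasper, and a line homozygous for Su(var)3-906, an allele of the gene for a histone methyltransferase of heterochromatin, on the same wm4h chromosome. They are called wm4h, Su113, Su140 and Su(var)3-9 here. Embryos were taken at nuclear cycle 14 (NC14) and at stages 7 to 8 (St7-8). Genotype and stage made 8 groups of 2 libraries, with 50 hand-sorted embryos in each library. The labels give the same egg laying of 1 h and ageing of 2 h at 25 °C for both stages, and they do not state the genotype of the mothers, which supply maternal RNA.

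A mature Drosophila egg is arrested in meiosis and carries a store of maternal RNA. At egg activation a rise in calcium acts through the phosphatase calcineurin, the anaphase-promoting complex (APC/C) lets meiosis finish, and the PAN GU kinase releases stored messages for translation. Much of the maternal RNA is then degraded as the embryo switches to its own transcription at the midblastula transition, around the first of the sampled stages. Deadhead is a thioredoxin that helps strip protamines from the sperm chromatin after fertilization. Cortex is a female meiosis activator of the APC/C in the Cdc20 family, and Grauzone is a zinc finger transcription factor needed for cort transcription in the ovary. Pan gu is a protein kinase, and Giant nuclei and Plutonium are its activating subunits.

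Positions are those of the build dm6. dhd (FBgn0011761) lay at chromosome X, 5312171 to 5313125, on the plus strand, with an annotated protein of 107 residues from a transcript of 1 exon. png (FBgn0000826) lay at X, 1356488 to 1357601, minus strand, also with 1 exon, and encoded 291 residues. cort (FBgn0000351) lay at 2L, 6674682 to 6676635, minus strand, with up to 6 exons and 483 residues. gnu (FBgn0001120) lay at 3L, 14802380 to 14803360, minus strand, with 2 exons and 240 residues. plu (FBgn0003114) lay at 2R, 20262958 to 20263684, minus strand, with 3 exons and 174 residues. grau (FBgn0001133) lay at 2R, 21009764 to 21011921, minus strand, with 5 exons and 570 residues. Exon lengths ran from 616 bases for plu to 1894 for grau, beside a median of 1842 bases over tested genes. The 3′ end of cort overlapped 99 exon bases of cup and CG34310 on the opposite strand, and the strand setting of the counting was not given. Reads from those bases therefore cannot be assigned with certainty, and cup itself was listed at 0 in all 16 libraries.

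Library totals ran from 43466130 to 92790237 counts, so that 3 counts correspond to 0.0299 to 0.0573 CPM, the unit of counts relative to library size, here scaled for composition with TMM. The lowest of the 96 values of the 6 genes was 49 counts, for cort. Some libraries stood apart from their stage label. The sum of 9 detected early zygotic genes of a list of 10 was 6256 CPM in wm4h St7-8 replicate 2, above the 4936 and 5584 CPM of the control NC14 libraries, and 2123 CPM in wm4h St7-8 replicate 1. The mean log2 CPM of 12 later zygotic genes was 5.16 and 4.66 in the control St7-8 libraries, 4.51 and 3.03 in those of Su113, 5.70 and 5.55 in those of Su140, and 6.53 and 6.09 in those of Su(var)3-9. A list of 10 markers of older embryos, muscle genes among them, summed to 282 and 1087 CPM in the Su113 St7-8 libraries and to 1046 CPM in Su140 St7-8 replicate 2, beside 10.2 to 77.4 CPM in the other 13 libraries. Of 15 ovary and eggshell markers, 13 stayed under 1 CPM in all 16 libraries, and the list summed to at most 3.24 CPM. Of 10 testis markers, 8 stayed under 1 CPM in all libraries, the protamine genes ProtA and ProtB among them.

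The differences were tested with edgeR's quasi-likelihood test and adjusted by Benjamini-Hochberg over all 12398 genes, with a threshold of 0.05. Nothing states that replicates came from separate crosses, so the p-values measure the spread between the sampled pools, which may be technical. In pools of embryos, more RNA per embryo and more embryos that carry the RNA cannot be told apart. All mutant comparisons at a stage share the same control libraries. With 2 libraries in each group, groups often lie apart. Depending on the comparison, 35.8% to 71.4% of all tested genes did not overlap between the groups compared.

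At NC14 the 6 genes gave no difference past the threshold between any mutant and wm4h. In Su113 at NC14, 0 of 6 passed, against 0.936% of all genes tested, with 0 at an unadjusted p under 0.05 and 0 by DESeq2. In Su140 at NC14, 0 of 6 passed, against 9.56% of all genes, with 1 at an unadjusted p under 0.05 and 1 by DESeq2, both times grau. For Su(var)3-9 at NC14, 0 of 6 passed, against 0.331% of all genes, with 0 at an unadjusted p under 0.05 and 0 by DESeq2.

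At St7-8 dhd and png were higher than in wm4h in Su113 and lower in Su(var)3-9. In Su113 3 of 6 were higher than in wm4h (dhd, cort and png), against 2.85% of all genes called in either direction and 1.85% called higher. Lower levels in Su(var)3-9 passed for 4 of 6 (dhd, png, gnu and plu), against 24.8% of all genes called and 15.9% called lower. In Su140 0 of 6 passed, against 1.15% of all genes, with 1 at an unadjusted p under 0.05 (png) and 0 by DESeq2. Against wm4h the 6 genes had a median log2 difference of 1.54 for Su113 (-0.09 over all genes tested), -0.40 for Su140 (-0.05) and -1.51 for Su(var)3-9 (0.04).

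Between the stages, the control showed no change past the threshold. Its St7-8 replicate 2 stood apart from the stage label, with an early zygotic sum of 6256 CPM, above both control NC14 libraries. The interactions with wm4h use this control change. In wm4h 0 of 6 genes passed by edgeR and by DESeq2, and 0 at an unadjusted p under 0.05. Over all genes the share called in this comparison was 0%, with 1395 genes at an unadjusted p under 0.05 and 420 called by DESeq2. In Su113 4 of 6 rose from NC14 to St7-8, against 21.8% of all genes called and 12.1% called higher. In Su140 4 of 6 passed, cort as higher and png, plu and grau as lower, against 33.6% of all genes called, 2180 of them higher and 1985 lower. Within Su(var)3-9 cort rose and gnu and plu fell, against 22.9% called, 10.0% higher and 12.8% lower.

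Whether a stage change differed from that of wm4h was tested as an interaction. For Su113, 1 of 6 genes passed, dhd, against 0.0887% of all genes, all of them in the higher direction (0.0887% higher), and 4 by DESeq2 (dhd, cort, png and gnu). For Su140, 0 of 6 passed, against 0.274% of all genes, with 3 at an unadjusted p under 0.05 and 1 by DESeq2 (png). For Su(var)3-9, 0 of 6 passed, against 1.84% of all genes, with 3 at an unadjusted p under 0.05 and 2 by DESeq2 (gnu and plu). Between the Jasper alleles at NC14, 0 of 6 passed, against 3.08% of all genes, with 3 at an unadjusted p under 0.05 and 3 by DESeq2 (dhd, gnu and grau). Between the alleles at St7-8, 3 of 6 were higher in Su113, again dhd, cort and png, against 2.40% of all genes called and 1.85% higher.

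**Figure D1:**
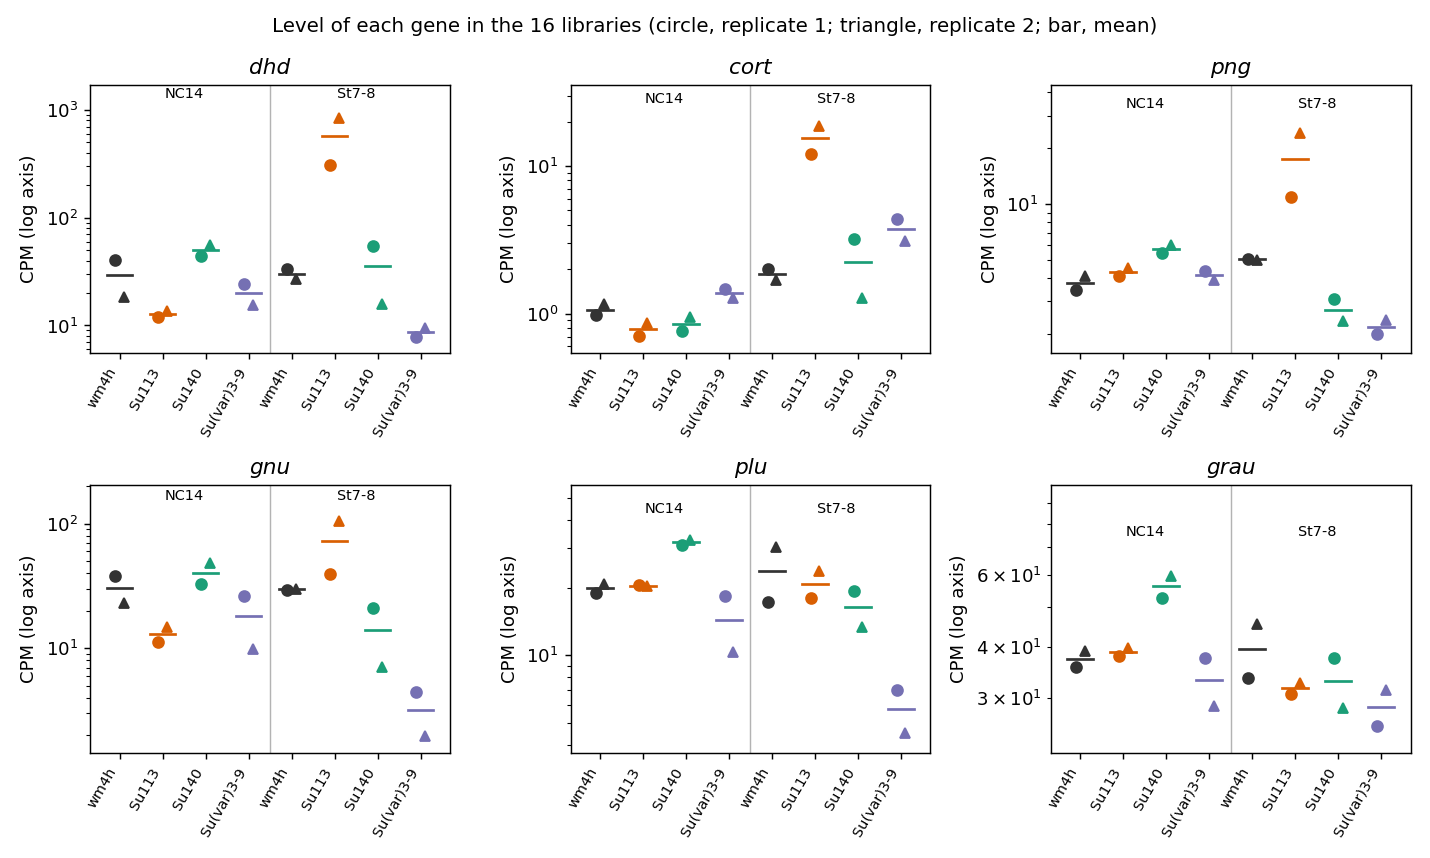
Level of each gene in CPM on a log axis, by genotype and stage; circles are replicate 1, triangles replicate 2 and bars the mean of 2 libraries. dhd, cort and png were highest in both Su113 St7-8 libraries, and gnu and plu were lowest in both Su(var)3-9 St7-8 libraries.

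Deadhead, the thioredoxin, showed the widest range of the 6 genes. In wm4h it stood at 40.2 and 18.5 CPM at NC14 and at 33.5 and 26.9 CPM at St7-8. In Su113 it stood at 12.1 and 13.7 CPM at NC14 and at 309 and 842 CPM at St7-8. Both Su113 libraries lay below both controls at NC14 and above every other library at St7-8. In Su140 it stood at 44.3 and 56.0 CPM at NC14 and at 54.8 and 15.99 CPM at St7-8, and in Su(var)3-9 at 24.3 and 15.4 CPM at NC14 and at 7.81 and 9.47 CPM at St7-8. The St7-8 replicates of Su140 were thus far apart and overlapped both controls, whereas both Su(var)3-9 libraries at St7-8 lay below all the others. The highest library exceeded the lowest 108-fold. In Su113 at St7-8 the mean was 576 ± 377 CPM (SD, n = 2), which put dhd at rank 262 of the 17753 genes of the table. Of the 12398 tested genes, 97.9% lay below it. In wm4h at St7-8 it stood at rank 4321 of the table, with 65.1% of the tested genes below.

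The dhd level at St7-8 was 19.0-fold higher in Su113 than in wm4h (log2 difference 4.25 ± 0.63 SE, adjusted p = 0.00615). Within Su113 it rose 44.7-fold from NC14 to St7-8 (log2 5.48 ± 0.67, adjusted p = 0.00199), while in wm4h the log2 change was 0.04 ± 0.56 (adjusted p = 0.998). The difference between these stage changes was 5.44 ± 0.84 on the log2 scale (adjusted p = 0.0461). Against Su140 at St7-8 the Su113 level was 16.2-fold higher (log2 4.02 ± 0.63, adjusted p = 0.00750), with a log2 difference of 3.16 to 5.17 when 1 library was left out. Conversely, dhd in Su(var)3-9 at St7-8 was 3.49-fold lower than in wm4h (log2 -1.80 ± 0.58, adjusted p = 0.0389). The Su113 deficit at NC14 did not pass, at -1.19 ± 0.57 against wm4h (adjusted p = 0.370) and at -1.96 ± 0.58 against Su140 (adjusted p = 0.0793). The latter passed with DESeq2 (-1.97, adjusted p = 0.00491) and with the NC14 libraries alone in the edgeR fit (-1.96, adjusted p = 0.00757). It did not pass with RLE size factors, without a filter on low counts, with a replicate block or with the later zygotic covariate.

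The call against wm4h at St7-8 was lost without wm4h replicate 2 (log2 4.10, adjusted p = 0.111), and with the St7-8 libraries alone in the fit (log2 4.42, adjusted p = 0.126). The stage change within Su113 was lost without Su113 NC14 replicate 1 (log2 5.56, adjusted p = 0.0671). The interaction of dhd was lost in 6 of 8 fits with 1 library left out, those without wm4h NC14 replicate 1, either wm4h St7-8 library, either Su113 NC14 library or Su113 St7-8 replicate 2 (log2 4.70 to 5.61, adjusted p 0.0806 to 0.401). The excess of dhd over Su140 was lost with the St7-8 libraries alone in the fit (log2 4.15, adjusted p = 0.134) and after adjustment for the later zygotic score (2.52, adjusted p = 0.999993). With either Su113 St7-8 library alone the difference of dhd from wm4h was 3.51 or 4.80 and passed. The lower dhd level of Su(var)3-9 did not pass in any of the 4 fits without 1 library of the comparison (log2 -1.96 to -1.64, adjusted p 0.106 to 0.179).

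Of the 12 later zygotic genes, 0 passed in Su113 against wm4h at St7-8, where 2.85% of all genes were called. Their summed levels overlapped, at 473 and 182 CPM in Su113 and 894 and 465 CPM in wm4h. The later zygotic score was lower in the Su113 St7-8 libraries than in the controls, 4.51 and 3.03 against 5.16 and 4.66, and the replicate with the lower score had the higher dhd level, 842 CPM. After adjustment for this score the log2 difference of dhd from wm4h was 3.25 (adjusted p = 0.106). The summed level of the older-embryo markers was higher in the Su113 St7-8 libraries than in the controls, although 0 of the 9 tested genes passed against wm4h. Mhc, the muscle myosin heavy chain gene, stood at 86.8 and 447 CPM in Su113 at St7-8 and the muscle actin gene Act57B at 114.9 and 417 CPM. Su140 St7-8 replicate 2 had 412 CPM of Mhc and 392 CPM of Act57B, and its dhd level was 15.99 CPM. Over the older-embryo list, 5 of the 9 tested genes passed as higher at St7-8 than at NC14 in Su113 and 7 of 9 in Su140. Beside them, 12.1% of all genes were called higher in that change in Su113, and 2180 of 12398 in Su140. Ovary and eggshell markers summed to 2.95 and 1.82 CPM in the Su113 St7-8 libraries, within the 0.808 to 3.24 CPM of the other 14, and 0 of 6 tested passed in the stage change of Su113. Of the 3 tested testis markers 2 passed as higher in that stage change, sa and can, at adjusted p = 0.0410 and 0.0464. Both were at 0 in the Su113 NC14 libraries and at 0.259 and 0.189 CPM (sa) and 0.0598 and 0.0757 CPM (can) at St7-8, below both wm4h St7-8 libraries for sa.

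**Figure D2:**
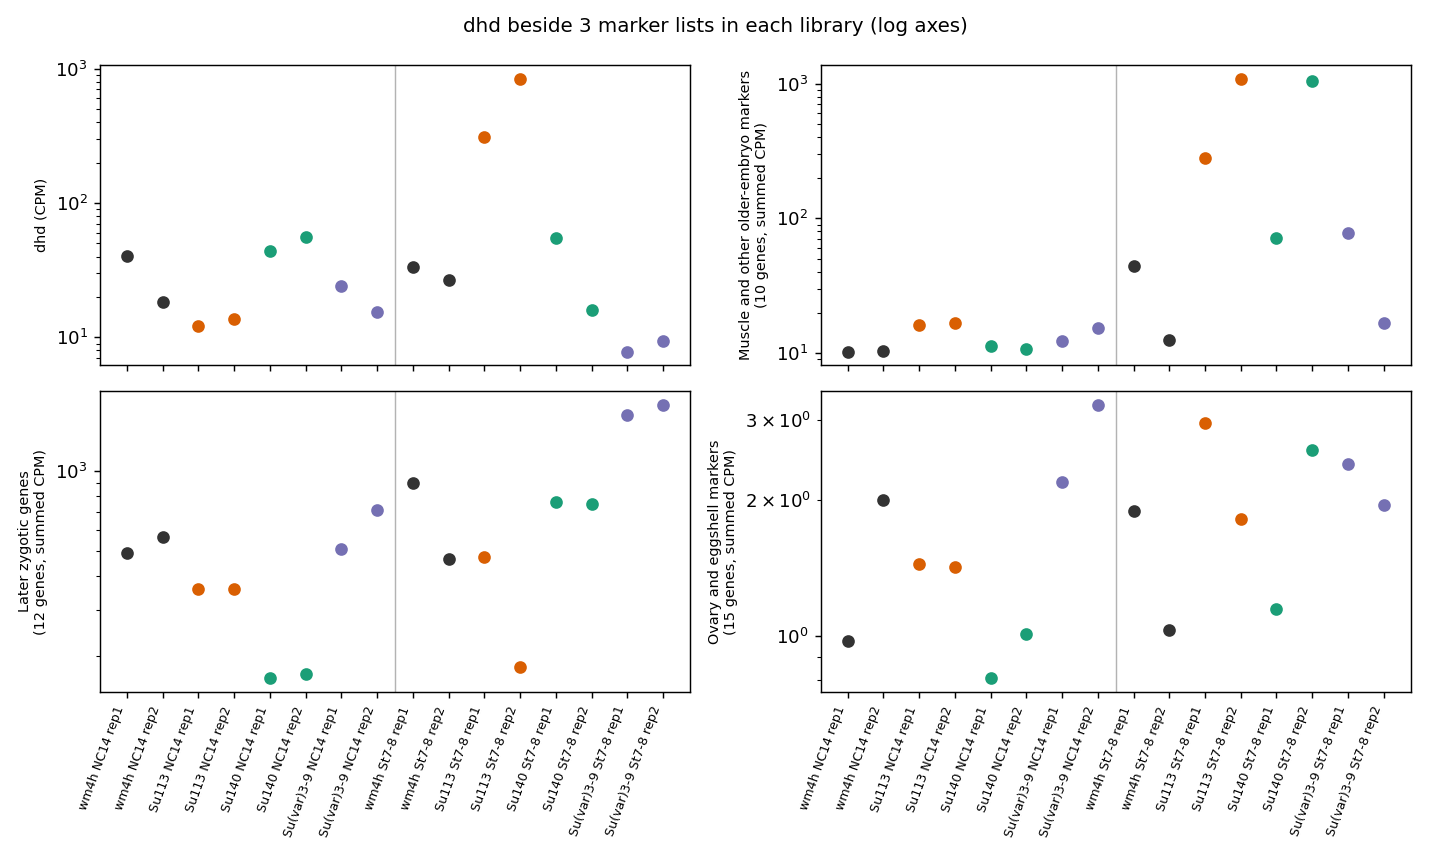
The dhd level and the summed levels of 3 marker lists in CPM, on log axes, in each of the 16 libraries, coloured by genotype. The older-embryo sum was high in both Su113 St7-8 libraries and in Su140 St7-8 replicate 2, whereas dhd was high in the Su113 libraries alone.

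The genes beside dhd on the X chromosome gave no such difference in Su113. TrxT, a testis thioredoxin gene 282 bases away on the opposite strand, stood at 1.52 ± 0.06 CPM in wm4h and 0.868 ± 0.478 CPM in Su113 at St7-8 (SD, n = 2), and the log2 difference was -0.80 (adjusted p = 0.288). CG4198, 132 bases away on the other side, stood at 1.84 ± 0.17 and 2.89 ± 0.73 CPM (log2 0.65, adjusted p = 0.302). The paralogue Trx2, a broadly expressed thioredoxin, did rise. It stood at 8.36 and 5.10 CPM in wm4h and at 22.9 and 52.1 CPM in Su113 at St7-8 (log2 2.48 ± 0.45, adjusted p = 0.0163). Trx2 levels in Su140 and Su(var)3-9 at St7-8 were 9.51 to 17.7 and 7.28 to 12.5 CPM, and neither comparison with wm4h passed (adjusted p = 0.248 and 0.378). Trxr1, the thioredoxin reductase gene, was lower in Su(var)3-9 at St7-8 (log2 -1.73 ± 0.29, adjusted p = 0.00188). Of the 3 tested genes of the thioredoxin list, 1 was higher in Su113 and 1 was lower in Su(var)3-9 at St7-8. Over all genes, 1.85% were called higher in Su113 and 15.9% lower in Su(var)3-9 there.

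Regulators that maintain dhd transcription in the Drosophila ovary were set beside it. Of 6 such genes, among them Kdm5, a histone demethylase, and Sin3A, a corepressor, 0 were called higher and 1 lower in Su113 than in wm4h at St7-8 (Sin3A, log2 -0.58 ± 0.14, adjusted p = 0.0456). Of all genes tested 1.85% were called higher there, so 0 of 6 is near that share. Between the stages in Su113 3 of 6 fell, against 1199 of the 12398 genes tested. They were Kdm5 (-0.71), Sin3A (-0.54) and mod(mdg4), an insulator-associated gene (-0.56). A link of these genes to the dhd level was not tested. Kdm5 was lower in Su(var)3-9 at St7-8 (log2 -1.11 ± 0.17, adjusted p = 0.00123). The partners of dhd in paternal chromatin gave mixed counts. Of the 8 tested genes of that list, 0 passed in Su113 against wm4h at St7-8, where 2.85% of all genes were called, so 0 of 8 is near that share. Between the stages in Su113 3 rose and 1 fell, against 21.8% of all genes called. The risers were yem (1.37) and Hira (1.24), which deposit histone H3.3 on the male pronucleus, and mh (1.37), a maternal protease gene, and Nlp (-0.56), a nucleoplasmin, fell.

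Cortex, the meiotic APC/C activator, was the least abundant of the 6 genes in 7 of 8 groups per length, with 0.644 ± 0.078 CPM per kb of exon in wm4h at NC14 (SD, n = 2). In wm4h it stood at 0.975 and 1.16 CPM at NC14 and at 1.99 and 1.697 CPM at St7-8, and in Su113 at 0.710 and 0.868 CPM and then at 12.1 and 18.8 CPM. Both Su113 libraries at St7-8 lay above all 14 others. In Su140 it stood at 0.761 and 0.945 CPM at NC14 and at 3.19 and 1.28 CPM at St7-8, and in Su(var)3-9 at 1.47 and 1.28 CPM and then at 4.37 and 3.10 CPM. In each genotype both St7-8 libraries lay above both NC14 libraries, which was the case for no other of the 6 genes. Between the stages, 35.8% (wm4h) to 71.4% (Su113) of all tested genes did not overlap, in either direction. The share of genes that rose without overlap in all 4 genotypes was not computed.

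At St7-8 cort was 8.37-fold higher in Su113 than in wm4h (log2 3.07 ± 0.46, adjusted p = 0.00633) and 6.91-fold higher than in Su140 (log2 2.79 ± 0.45, adjusted p = 0.0106). From NC14 to St7-8 it rose 19.6-fold in Su113 (log2 4.29 ± 0.49, adjusted p = 0.00165), 2.72-fold in Su(var)3-9 (log2 1.44 ± 0.44, adjusted p = 0.0332) and 2.61-fold in Su140 (log2 1.39 ± 0.44, adjusted p = 0.0326). In wm4h the log2 change was 0.79 ± 0.43 (adjusted p = 0.508). The difference of the Su113 stage change from that of wm4h was 3.502 ± 0.62 and missed the threshold (adjusted p = 0.0606). It passed with DESeq2 (3.70, adjusted p = 5.61e-07), with RLE size factors (adjusted p = 0.0459), without a filter on low counts (0.0384) and without the second St7-8 libraries (0.0461). The higher level in Su(var)3-9 than in wm4h at St7-8 missed it too (log2 1.02 ± 0.43, adjusted p = 0.107) and passed with DESeq2 (adjusted p = 0.0370).

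The Su113 calls for cort were lost without wm4h St7-8 replicate 2 (log2 2.95, adjusted p = 0.106), without Su113 NC14 replicate 1 for the stage change (4.31, adjusted p = 0.0662), and without Su113 St7-8 replicate 2 for the comparison with Su140 (2.46, adjusted p = 0.0562). With the St7-8 libraries alone in the fit, cort was 3.23 above wm4h (adjusted p = 0.126), and 2.93 above it after adjustment for the later zygotic score (adjusted p = 0.0843). The cort rise in Su140 was lost without either NC14 library or without St7-8 replicate 1 (0.58 to 1.55, adjusted p 0.109 to 0.289), and that in Su(var)3-9 without any 1 of its 4 libraries (1.14 to 1.67, adjusted p 0.0572 to 0.179).

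Grauzone, the activator of cort in the ovary, was the steadiest of the 6, with a highest library 2.32-fold above the lowest. It stood at 35.8 and 39.1 CPM in wm4h at NC14 and at 33.6 and 45.5 CPM at St7-8, and in Su113 at 38.0 and 39.9 CPM and then at 30.8 and 32.6 CPM. The Su113 libraries at St7-8, where cort was highest, lay below both controls for grau, and that difference did not pass (log2 -0.32 ± 0.21, adjusted p = 0.333). In Su140 grau stood at 52.8 and 59.6 CPM at NC14 and at 37.7 and 28.5 CPM at St7-8, and in Su(var)3-9 at 37.6 and 28.8 CPM and then at 25.6 and 31.5 CPM. The Su140 NC14 libraries were the highest of all 16, and the excess over wm4h missed the threshold (log2 0.59 ± 0.21, adjusted p = 0.0953). It passed with DESeq2 (adjusted p = 0.0174) and with the NC14 libraries alone in the fit (adjusted p = 0.0465). Within Su140 grau fell by 0.77 ± 0.21 on the log2 scale to St7-8 (adjusted p = 0.0200). That call was lost without either NC14 library or without St7-8 replicate 2 (adjusted p 0.0627 to 0.161). Per length, grau exceeded cort 29.5-fold and 32.1-fold in the control NC14 libraries and 2.22-fold and 1.52-fold in the Su113 St7-8 libraries.

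Pan gu, the kinase, was less abundant than its activating subunits per length in all 8 groups at the group means. In wm4h png stood at 3.44 and 4.12 CPM at NC14 and at 5.07 and 5.04 CPM at St7-8, and in Su113 at 4.10 and 4.54 CPM and then at 11.01 and 24.2 CPM. Both Su113 St7-8 libraries lay above all 14 others. In Su140 png stood at 5.44 and 6.06 CPM at NC14 and at 3.08 and 2.34 CPM at St7-8, and in Su(var)3-9 at 4.39 and 3.91 CPM and then at 1.99 and 2.38 CPM. The St7-8 libraries of Su140 and Su(var)3-9 were the lowest 4 for png.

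At St7-8 png was 3.48-fold higher in Su113 than in wm4h (log2 1.80 ± 0.35, adjusted p = 0.0229) and 6.50-fold higher than in Su140 (log2 2.70 ± 0.37, adjusted p = 0.00520). It was 2.31-fold lower in Su(var)3-9 than in wm4h (log2 -1.21 ± 0.35, adjusted p = 0.0263), and in Su140 the log2 difference of -0.90 ± 0.35 did not pass (adjusted p = 0.210). Between the stages png rose 4.08-fold in Su113 (log2 2.03 ± 0.36, adjusted p = 0.00591) and fell 2.12-fold in Su140 (log2 -1.09 ± 0.35, adjusted p = 0.0346). The log2 change was -0.92 ± 0.35 in Su(var)3-9 (adjusted p = 0.0785) and 0.42 ± 0.35 in wm4h (adjusted p = 0.674). CG11417, which ends 14 bases from png, did not differ past the threshold in Su113 (log2 -0.08, adjusted p = 0.754) and was lower in Su(var)3-9 at St7-8 (log2 -1.65, adjusted p = 0.00139).

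The png difference of Su113 from wm4h was lost without either wm4h St7-8 library or without Su113 St7-8 replicate 2 (log2 1.28 to 1.81, adjusted p 0.0611 to 0.171), and was 1.09 after adjustment for the later zygotic score (adjusted p = 0.337). The lower png level in Su(var)3-9 at St7-8 did not pass in any of the 4 fits without 1 library (adjusted p 0.0559 to 0.152). The rise of png in Su113 was lost without either NC14 library of Su113 (adjusted p = 0.0868 and 0.0596), and its fall in Su140 without any 1 of the 4 libraries (adjusted p 0.0507 to 0.193). The excess of png over Su140 passed in all 4 such fits (2.03 to 3.16).

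Giant nuclei, an activating subunit of the kinase, varied more than the kinase gene itself, 53.6-fold from the lowest to the highest library. In wm4h gnu stood at 38.1 and 23.1 CPM at NC14 and at 29.4 and 30.1 CPM at St7-8, and in Su113 at 11.3 and 14.7 CPM and then at 39.7 and 105 CPM. Both Su113 libraries lay below the controls at NC14 and above them at St7-8. In Su140 gnu stood at 32.5 and 48.0 CPM at NC14 and at 21.2 and 7.05 CPM at St7-8, and in Su(var)3-9 at 26.3 and 9.87 CPM and then at 4.47 and 1.97 CPM. The Su(var)3-9 St7-8 libraries were the lowest of the 16.

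At St7-8 gnu was 9.26-fold lower in Su(var)3-9 than in wm4h (log2 -3.21 ± 0.67, adjusted p = 0.00584), and from NC14 it fell 5.64-fold (log2 -2.49 ± 0.66, adjusted p = 0.0184). In Su113 it rose 5.57-fold between the stages (log2 2.48 ± 0.65, adjusted p = 0.0240). The excess of Su113 at St7-8 did not pass against wm4h (log2 1.29 ± 0.62, adjusted p = 0.214) or against Su140 (log2 2.36 ± 0.64, adjusted p = 0.0796). The latter passed with DESeq2 (2.44, adjusted p = 0.00121) and without Su113 St7-8 replicate 1 (2.90, adjusted p = 0.0210). The lower level in Su(var)3-9 was lost without Su(var)3-9 St7-8 replicate 2 (log2 -2.73, adjusted p = 0.0579). Its stage change was lost without Su(var)3-9 NC14 replicate 1 (log2 -1.62, adjusted p = 0.182) or St7-8 replicate 2 (log2 -2.02, adjusted p = 0.125). The gnu rise in Su113 was lost without either NC14 library or without St7-8 replicate 2 (1.75 to 2.68, adjusted p 0.109 to 0.176).

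Plutonium, the other activating subunit, did not share the Su113 rise. In wm4h plu stood at 18.9 and 20.8 CPM at NC14 and at 17.3 and 30.2 CPM at St7-8, and in Su113 at 20.5 and 20.3 CPM and then at 17.9 and 23.8 CPM. The ranges of these 4 groups overlapped. In Su140 plu stood at 31.0 and 32.4 CPM at NC14 and at 19.2 and 13.4 CPM at St7-8, and in Su(var)3-9 at 18.3 and 10.3 CPM and then at 6.995 and 4.54 CPM. The last 2 libraries were the lowest of the 16. At St7-8 plu was 4.12-fold lower in Su(var)3-9 than in wm4h (log2 -2.04 ± 0.35, adjusted p = 0.00198), and the log2 difference of Su113 from wm4h was -0.19 ± 0.34 (adjusted p = 0.730).

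Between the stages plu fell 2.48-fold in Su(var)3-9 (log2 -1.31 ± 0.34, adjusted p = 0.0180) and 1.94-fold in Su140 (log2 -0.96 ± 0.34, adjusted p = 0.0470). The lower plu level in Su(var)3-9 passed in all 4 fits without 1 library (log2 -2.39 to -1.59). Its stage change was lost without NC14 replicate 1 (log2 -0.84, adjusted p = 0.197) or St7-8 replicate 2 (log2 -1.03, adjusted p = 0.129). The fall in Su140 was lost without either NC14 library or without St7-8 replicate 2 (adjusted p 0.122 to 0.265). PCNA, the replication clamp gene that starts 74 bases from plu, was higher in Su(var)3-9 at St7-8, where plu was lower (log2 0.68 ± 0.15, adjusted p = 0.00776).

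**Figure D3:**
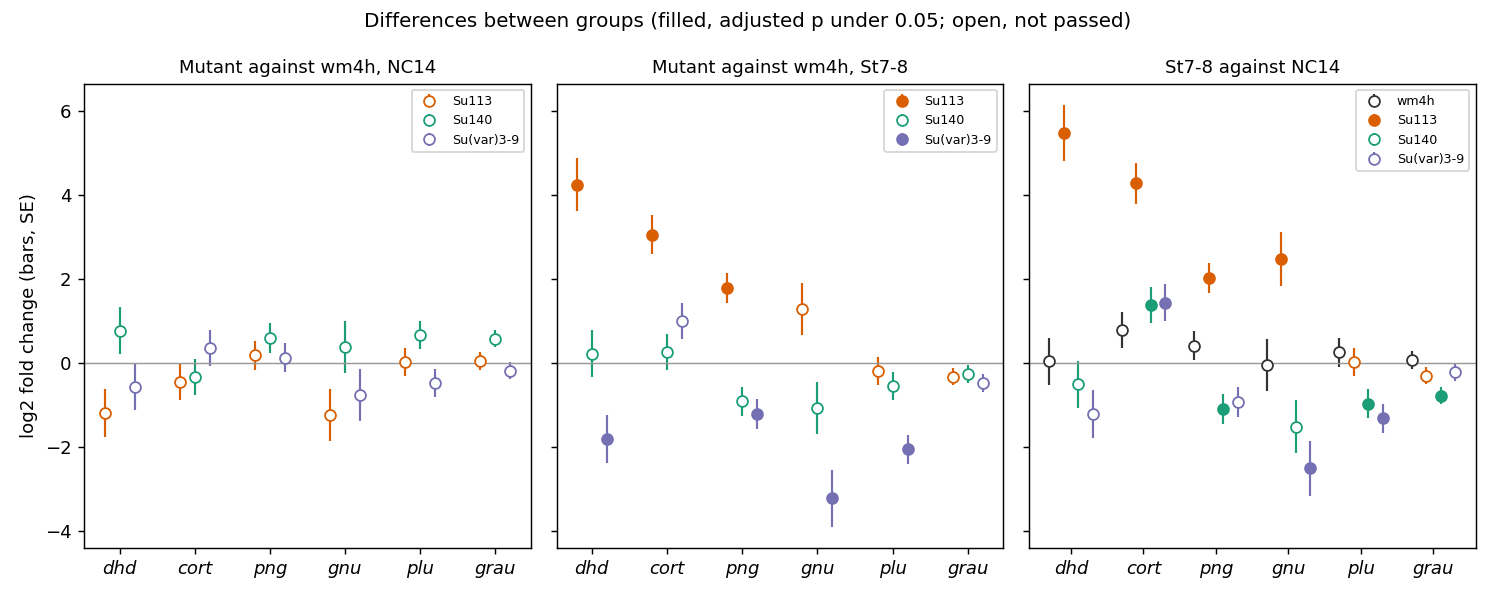
Log2 fold changes of the 6 genes with their SE in 3 sets of comparisons, coloured by genotype; filled points had an adjusted p under 0.05. No point is filled for the mutants against wm4h at NC14, and at St7-8 the filled Su113 points lie above 0 and the filled Su(var)3-9 points below it.

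The later zygotic genes moved the other way from the kinase genes in Su(var)3-9. At St7-8 5 of 12 of them were higher than in wm4h and 8 of 9 tested early zygotic genes were lower. Over all 12398 genes tested, 1108 were called higher and 1972 lower there. The segment polarity gene en was higher by 1.73 ± 0.46 and the cellularization gene slam lower, at -6.35 ± 0.54. Adjusted for the later zygotic score, the Su(var)3-9 differences at St7-8 were -0.85 for dhd, -0.48 for png, -2.32 for gnu and -1.60 for plu, with adjusted p 0.605, 0.609, 0.236 and 0.154. The score was added beside the 8 group means, so its slope rests on differences between replicates. Such a fit cannot divide a difference between groups into a part that goes with embryo age and a remainder. How much of each difference goes with the age of the embryos was not tested.

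The RNA ratio of the subunits to the kinase differed between libraries. Per length, gnu exceeded png 13.4-fold and 6.78-fold in the control NC14 libraries and 6.99-fold and 7.203-fold at St7-8. In Su113 the ratio was 3.33 and 3.92 at NC14 and 4.36 and 5.25 at St7-8, below the controls in all 4 libraries. At St7-8 in Su(var)3-9 it was 2.70 and 0.997. plu exceeded png 9.94-fold and 9.13-fold in the control NC14 libraries and 6.17-fold and 10.9-fold at St7-8. That ratio was 2.94 and 1.77 in Su113 at St7-8, below all 14 other libraries, and 11.3 and 10.4 in Su140 at St7-8. These ratios of RNA levels are a description and were not tested.

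Per length, gnu, plu and dhd lay close together in the control at NC14, with 33.2 ± 11.4, 32.2 ± 2.2 and 30.7 ± 16.1 CPM per kb, above grau at 19.8 ± 1.2, png at 3.39 ± 0.43 and cort at 0.644 ± 0.078 CPM per kb (SD, n = 2). The first 3 did not differ beyond their spread. In Su113 at St7-8 dhd led with 603 ± 395 CPM per kb, followed by gnu at 78.6 ± 50.3, plu at 33.8 ± 6.7, grau at 16.7 ± 0.7, png at 15.8 ± 8.4 and cort at 9.34 ± 2.85 CPM per kb. For Su(var)3-9 at St7-8 the order was grau at 15.1 ± 2.2, plu at 9.36 ± 2.82, dhd at 9.05 ± 1.23, gnu at 3.48 ± 1.92, cort at 2.26 ± 0.54 and png at 1.96 ± 0.25 CPM per kb.

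The order of the 8 groups differed between the genes. For dhd, cort and png the Su113 St7-8 group was the highest and overlapped none of the others, and for gnu it was the highest and overlapped the Su140 NC14 group, which came next. Of all tested genes, 48.4% did not overlap between Su113 and wm4h at St7-8, and 42.8% did not between Su113 and Su140. Between the stages in Su113 that share was 71.4%. The share of genes with no overlap with any other group was not computed. For plu and grau the Su140 NC14 group was the highest and did not overlap the wm4h St7-8 group, which came next. Su(var)3-9 at St7-8 was the lowest group for all but cort, for which it came next after Su113 at St7-8. For grau the lower 7 groups in this order each overlapped their neighbour.

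Across the 16 libraries, which share their depth and composition across genes, the log2 CPM of dhd had a Pearson correlation of 0.89 with png, 0.79 with gnu, 0.67 with cort, 0.47 with plu and 0.11 with grau. gnu and plu had 0.85, plu and grau 0.76, and cort and grau -0.48. These values are given as a description with no test. Among 7698 other tested genes with a mean of at least 2 CPM, those most like dhd were CG5194 (r = 0.98), Cyp6a19, a cytochrome P450 gene (0.97), and stet, a rhomboid-family gene of the germline (0.97). Cyp6a19 stood at 1.04 and 1.06 CPM in wm4h and at 32.9 and 77.4 CPM in Su113 at St7-8. Most like png were clos, CG7091 and exu, a gene for localizing bicoid RNA in the oocyte (0.97, 0.96 and 0.95), and exu stood at 9.48 and 13.2 CPM in wm4h and at 106 and 196 CPM in Su113 at St7-8. Most like cort were ras, which encodes an enzyme of guanine nucleotide synthesis, CG7745 and ERp44 (0.97, 0.97 and 0.95). Most like gnu were Mov10, orb, which regulates translation in the oocyte, and the APC/C subunit gene APC7 (each 0.99), most like plu EDTP, Der-2 and sced (each 0.99), and most like grau Tbc1d22, CG4709 and dgt1 (each 0.96).

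Other genes of meiosis completion gave no call in Su113 against wm4h at St7-8. Of 20 tested APC/C, cyclin and meiotic division genes, 0 passed in that comparison, against 2.85% of all genes, so 0 of 20 is near that share. The list median was -0.19 beside -0.09 over all genes. Between the stages in Su113 4 of 20 rose and 6 fell, against 21.8% of all genes called. The risers were led by mtrm, the Polo inhibitor of the oocyte (3.83 ± 0.74, adjusted p = 0.00812), and Rca1, an inhibitor of the APC/C (2.72 ± 0.35, adjusted p = 0.00212). mtrm stood at 22.3 and 14.7 CPM in wm4h and at 46.3 and 128 CPM in Su113 at St7-8. The APC/C activator fzy, the paralogue of cort used in mitosis, fell by 0.60 ± 0.14 (adjusted p = 0.0182). In Su(var)3-9 at St7-8 2 of 20 were higher than in wm4h, among them Rca1 (1.59 ± 0.33, adjusted p = 0.00584), and 5 were lower, beside 1108 and 1972 of the 12398 genes tested. The lower genes included twe, the meiotic Cdc25 phosphatase (-3.80 ± 0.61, adjusted p = 0.00143), and pim, the securin gene (-1.15 ± 0.32, adjusted p = 0.0213).

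Of the 10 genes of the calcium and calcineurin step of egg activation, 1 differed in Su113 from wm4h at St7-8, CanB, a calcineurin regulatory subunit. Over all genes, 2.85% were called there. CanB stood at 10.9 CPM in both control St7-8 libraries and at 1.62 and 3.12 CPM in Su113 (log2 -2.20 ± 0.37, adjusted p = 0.0105). CanB was the single member of its list called at NC14, and was lower in all 3 mutants there, with log2 differences of -3.79 in Su113 (adjusted p = 0.00123), -3.54 in Su(var)3-9 (0.00341) and -2.59 in Su140 (0.00280), comparisons that share the control libraries. The shares of all genes called there were 0.936%, 0.331% and 9.56%, in the same order. Between the stages in Su113 4 of 10 rose, CanB (1.56), CanA-14F, a calcineurin catalytic subunit gene (2.08), Itpr, the calcium release channel gene (0.63), and CanB2 (1.51), and 0 fell. Over all genes, 12.1% were called higher in that change. In Su(var)3-9 at St7-8 6 of 10 were lower, against 15.9% of all genes called lower, with a list median of -1.59 beside 0.04 over all genes. They included CanB (-4.23 ± 0.40), sra, a calcineurin regulator needed for egg activation (-2.37 ± 0.35), the catalytic subunit gene Pp2B-14D (-2.95 ± 0.44) and CanB2 (-3.27 ± 0.52). Their adjusted p ran from 0.000185 to 0.00143.

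Of 10 tested translational targets and partners downstream of PAN GU, 1 was higher in Su113 at St7-8, nanos, the posterior determinant (log2 1.72 ± 0.34, adjusted p = 0.0243), and 0 were lower. Of all genes tested, 1.85% were called higher in that comparison. smg, the RNA-binding regulator whose translation depends on PAN GU, stood at 1681 and 3067 CPM in wm4h and at 1598 and 2595 CPM in Su113 at St7-8 (log2 -0.18, adjusted p = 0.787). In Su(var)3-9 at St7-8 8 of 10 were lower, against 15.9% of all genes called lower, with a list median of -1.09. They included smg (-2.85 ± 0.43, adjusted p = 0.00104), the cytoplasmic poly(A) polymerase gene wisp (-2.32 ± 0.28, adjusted p = 0.000390), pum (-1.95 ± 0.30, adjusted p = 0.00110) and tral (-1.43 ± 0.25, adjusted p = 0.00209), both translational regulators. Of the 7 maternal transcripts known to be cleared in the early embryo, 2 were higher in Su113 at St7-8, against 1.85% of all genes. They were nanos and the heat shock protein gene Hsp83 (1.91 ± 0.21, adjusted p = 0.00169). In Su(var)3-9 5 of 7 were lower, against 15.9% of all genes. Among them were bcd, the anterior determinant (-4.31 ± 0.67, adjusted p = 0.00128), and gcl, a germ cell gene (-1.83 ± 0.38, adjusted p = 0.00526).

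Of the 22 differences called for the 6 genes, all kept their direction in 222 recalculations under other settings, and 140 of these stayed past the threshold. The dhd and png excess of Su113 over Su140 and the lower plu level in Su(var)3-9 at St7-8 were the 3 calls that passed in every fit with 1 library left out. The first 2 were lost with the St7-8 libraries alone in the fit (adjusted p = 0.134 for each) and, like plu (-1.60, adjusted p = 0.154), after adjustment for the later zygotic score (2.52 and 1.62, adjusted p = 0.999993 and 0.926). The plu call was also lost without the second St7-8 libraries (-1.31, adjusted p = 0.0627).

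**Figure D4:**
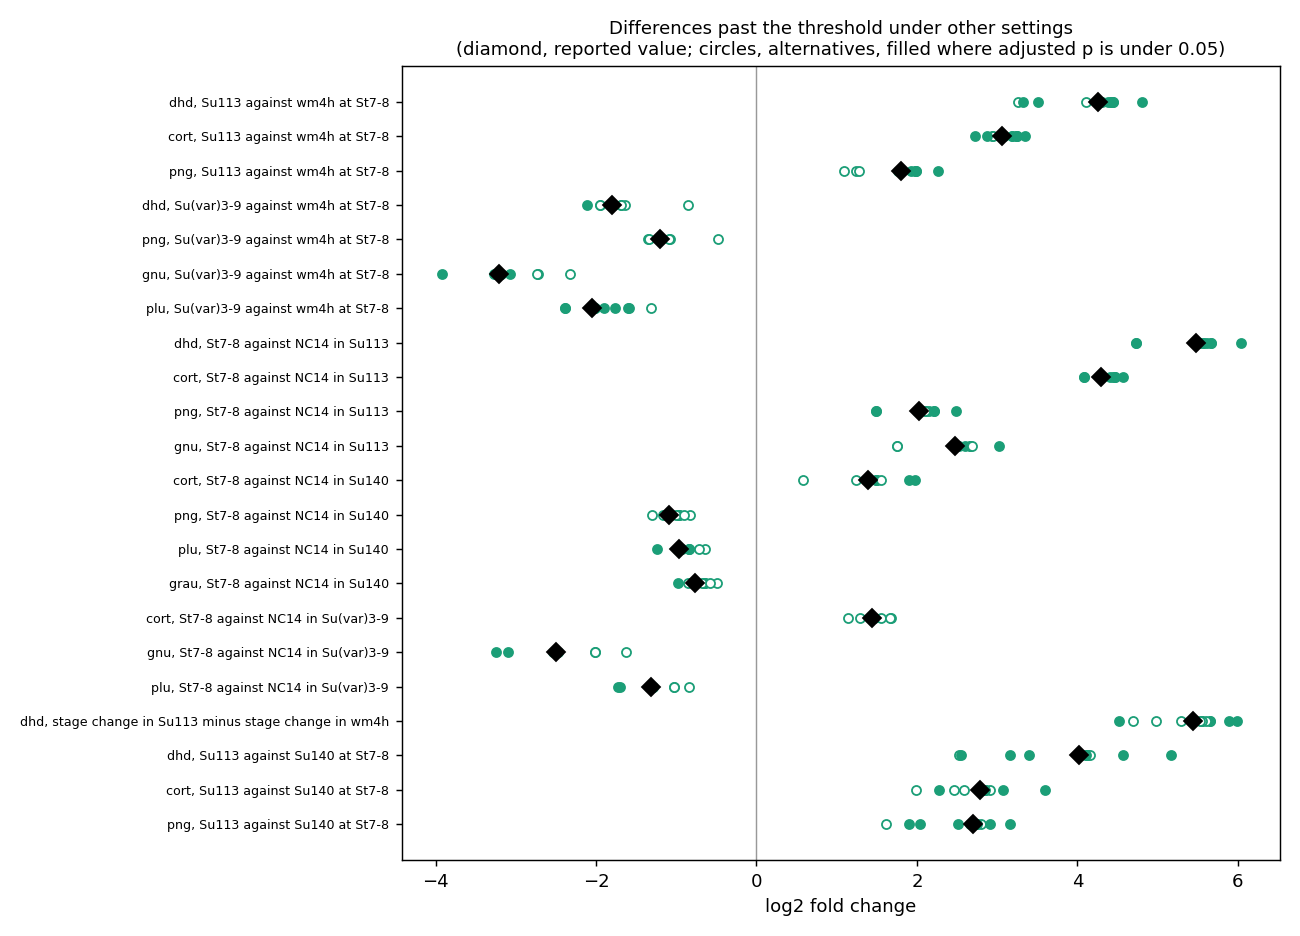
Log2 fold change of each of the 22 called differences (diamond) and under each alternative setting (circles, filled where the adjusted p was under 0.05). All circles lie on the same side of 0 as their diamond, and open circles mark the 82 values that no longer passed.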

How the data were processed

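RNA was measured in 16 libraries. The authors deposited a table of raw, whole-number counts per gene, read here by columns that match the labels. Per the submitters' processing notes, the build was dm6 and DESeq2 was used. The aligner, the counter, its strand setting and the annotation are not given in the sources used here. Per the labels' protocols, libraries came from total RNA with a stranded kit. Symbols and dm6 positions came from Ensembl release 115, which matched 17626 of 17753 identifiers, 127 having no symbol.

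CPM (TMM), tests and log2 fold changes were computed here with edgeR 4.0.16, DESeq2 1.42.0 and limma 3.58.1 in R 4.3.3, and figures with python 3.11.15, pandas 2.3.3 and matplotlib 3.10.9. filterByExpr over the 8 groups kept 12398 genes and removed 5355. One quasi-likelihood model of 8 group means (residual degrees of freedom 8, common biological coefficient of variation 0.401, log2 CPM with a prior count of 2) gave all 15 comparisons, two-sided, with Benjamini-Hochberg adjustment over all genes tested and a threshold of 0.05. All groups share 1 spread per gene, although the SD of the log2 CPM difference between replicates was 0.57 to 0.85 at NC14 and 0.92 to 1.55 at St7-8. No replicates were alike within sampling noise (chi-square per gene 23.9 to 297). The fit was tested on simulated data. Limits set by 3 counts cover counting error only, since the reads carry no molecular identifiers.

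The members, the 12 lists and the alternatives were chosen with earlier results of these data known. Named beside the members are the 3 genes most correlated with each, up to 4 called genes a list, ordered by adjusted p, and paralogues. CG4198, CG11417, PCNA and fzy, and the values by library of Mhc, Act57B, Cyp6a19, exu, mtrm and CanB, were chosen for print after they were seen. Alternatives were other size factors, no filter, DESeq2, a replicate block, 1 stage alone, a later zygotic covariate, and libraries left out. Replicate numbers did not pair the samples, since 3 of 28 pairs of groups had correlated deviations (r over 0.1).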

Additional observations from a re-analysis of the deposited data

Results flagged for a closer look

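The stage change of dhd differed between Su113 and wm4h when that difference itself was tested, by 5.44 on the log2 scale (adjusted p = 0.0461, edgeR's quasi-likelihood test). Both Su113 libraries at St7-8, at 309 and 842 CPM, lay above both at NC14, at 12.1 and 13.7 CPM, while the wm4h groups overlapped. Of all tested genes, 71.4% did not overlap between the stages in Su113, and 35.8% did not in wm4h. No other of the 6 genes passed it with edgeR in any of the 3 mutants, whereas with DESeq2 cort, png and gnu also passed for Su113, png for Su140, and gnu and plu for Su(var)3-9. With 1 library left out, the log2 difference of dhd ran from 4.70 to 5.99, and it passed in 2 of 8 such fits. Groups of 2 libraries are too small to tell which single library is outlying.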

How the results depend on the processing

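Of 90 log2 differences (6 genes in 15 comparisons), 22 were called, none of which changed sign in 222 recalculations, 140 of them still past the threshold. Of 756 recalculations of the 68 not called, 33 passed, in 17 results. The number of the 6 genes called moved as follows. With RLE size factors, and again without a filter on low counts, the Su140 stage change gave 2 and the Su113 interaction 2. With a replicate block the Su113 interaction gave 0 (dhd 5.45, adjusted p = 0.0800), and in single genes the block ended the calls of dhd in Su(var)3-9 at St7-8 and of plu between the stages in Su140. Deviations of same-numbered libraries correlated at -0.50 to 0.33 over the 28 pairs of groups. With 1 stage alone in the fit, Su140 at NC14 gave 1, the alleles at NC14 2, Su113 at St7-8 0, Su(var)3-9 at St7-8 2 and the alleles at St7-8 0. With the later zygotic covariate Su113, Su(var)3-9 and the alleles at St7-8 each gave 0. Without the second St7-8 libraries, Su140 at NC14 gave 1, Su(var)3-9 at St7-8 2, the Su140 stage change 1, the Su113 interaction 2 and the alleles at NC14 2. With DESeq2, Su140 at NC14 gave 1, the alleles at NC14 3 and the interactions of Su113, Su140 and Su(var)3-9 4, 1 and 2. With 1 library left out, counts ran from 0 to 3 for Su113 and 1 to 3 for Su(var)3-9 at St7-8, 0 to 4, 0 to 3 and 0 to 2 for the stage changes in Su113, Su140 and Su(var)3-9, and 0 to 3, 0 to 2 and 0 to 1 for their interactions; the lone library is then assumed to vary like the other groups. The causes were not tested. Counts over all genes moved by over 1.5 times in 113 of 163 recalculations, for example from 353 to between 27 and 1487 for Su113 at St7-8 with 1 library left out. Under the other settings the lowest count over all genes at St7-8 was 1 for Su113 against wm4h, and 0 for Su113 against Su140 (297 in the main fit). A call lost in such a fit is therefore not particular to the 6 genes. All the settings listed were run. The lowest value of the 6 genes was 49 counts, and the effect of depth was not tested.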
